A study of Rattus norvegicus with 34 samples.

Results

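The 5 probes studied here are for drug-inducible cytochrome P450 enzymes, 1 of the CYP2B and 4 of the CYP3A subfamily, and were followed across maternal and embryonic tissues of treated pregnant rats. They were CYP2B1/2, Cyp3a23-3a1, Cyp3a2, Cyp3a18 and Cyp3a9, taken by the gene name of the spot on the arrays that carry names and by the same row and column on the arrays that carry numbers. They were 5 of the 239 named probes of the array. The name CYP2B1/2 stands for the genes Cyp2b1 and Cyp2b2 together, so these were not told apart. Expression was measured on 34 PIQOR cDNA arrays, on each of which RNA of vehicle animals (Cy3) was set against RNA of treated animals (Cy5).

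All animals were Wistar rats, a common outbred laboratory strain, and the treated dams received EMD 82571 or retinoic acid daily. EMD 82571, named a calcium sensitizer by the series, was given at 50 mg/kg/day (low dose) or 150 mg/kg/day (high dose). The dose of retinoic acid, a vitamin A derivative, is 12 mg/kg/day in the protocol and 20 mg in the labels, so none is attached to it here. Titles of the retinoic acid arrays also differ, with a 20, a 6 or no number beside the compound, which is not explained. Dosing ran over gestational days 6 to 11 and 6 to 17, without a statement of which groups each window covers. On day 12 the tissues were maternal liver and whole embryo, and on day 20 embryo bone, embryo liver and maternal liver. This gives 15 groups of tissue, day and treatment with 2 arrays each, except whole embryo and maternal liver with retinoic acid on day 12, with 4 arrays each. The labels do not say whether arrays of a group came from separate animals, pools or repeats of 1 RNA, so the errors and p values may cover technical spread only. The dyes were never swapped, so a dye effect of a probe is part of every treated over vehicle ratio. Each embryonic tissue is a mixture of cells, and in such samples fewer cells of a type and less RNA per cell cannot be told apart.

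Enzymes of the CYP2B and CYP3A subfamilies are membrane-bound oxidases of the hepatocyte that clear drugs, steroids and other foreign compounds. In rat liver, CYP2B1 and CYP2B2 are the classic phenobarbital-inducible forms, and CYP3A23 is the form induced by dexamethasone and pregnenolone carbonitrile. CYP3A2 and CYP3A18 are steroid hydroxylases that are more abundant in male than in female adult rats, and CYP3A9 is a form that is more abundant in females. Transcription of both subfamilies is driven by the nuclear receptors CAR and PXR, which bind DNA together with RXR at repeats of a hexamer such as AGGTCA or AGTTCA. Probes for CAR and PXR were not analysed here.

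The promoters of the 6 genes are shown because CAR and PXR act on these genes through DNA, and because neighbouring P450 genes can share sequence. Each runs from 250 bases before to 50 bases after the gene's start in RefSeq's annotation of the rat build GRCr8, 5′ to 3′ on the gene's own strand. Capitals mark the hexamers AGGTCA and AGTTCA, or their reverse complements TGACCT and TGAACT.
Cyp2b1 (chr1:90645869-90646168, + strand): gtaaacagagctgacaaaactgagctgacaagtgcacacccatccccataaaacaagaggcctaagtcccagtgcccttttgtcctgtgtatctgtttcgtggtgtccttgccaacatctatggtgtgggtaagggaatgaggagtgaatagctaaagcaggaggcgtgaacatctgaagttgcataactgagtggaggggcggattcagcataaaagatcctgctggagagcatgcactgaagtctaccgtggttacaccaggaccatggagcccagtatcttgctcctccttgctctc
Cyp2b2 (chr1:90722031-90722330, + strand): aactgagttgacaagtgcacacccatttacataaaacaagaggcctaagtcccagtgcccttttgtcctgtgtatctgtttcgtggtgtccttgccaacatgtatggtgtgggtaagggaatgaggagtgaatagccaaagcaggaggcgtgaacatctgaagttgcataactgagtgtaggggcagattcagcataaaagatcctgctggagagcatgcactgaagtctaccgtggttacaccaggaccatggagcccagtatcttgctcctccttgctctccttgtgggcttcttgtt
Cyp3a23-3a1 (chr12:14398754-14399053, - strand): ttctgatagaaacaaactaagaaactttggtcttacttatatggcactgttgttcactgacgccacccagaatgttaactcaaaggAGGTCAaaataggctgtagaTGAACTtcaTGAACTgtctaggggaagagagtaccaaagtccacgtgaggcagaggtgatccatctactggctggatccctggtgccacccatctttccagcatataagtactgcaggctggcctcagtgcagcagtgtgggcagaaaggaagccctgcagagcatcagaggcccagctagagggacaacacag
Cyp3a2 (chr12:14343808-14344107, - strand): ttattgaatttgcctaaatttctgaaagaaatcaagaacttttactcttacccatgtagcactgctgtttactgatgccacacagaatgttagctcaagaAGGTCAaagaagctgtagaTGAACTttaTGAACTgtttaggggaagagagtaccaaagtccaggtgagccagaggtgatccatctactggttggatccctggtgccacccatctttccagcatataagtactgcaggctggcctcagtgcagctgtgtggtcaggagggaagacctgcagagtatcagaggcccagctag
Cyp3a18 (chr12:13994062-13994361, + strand): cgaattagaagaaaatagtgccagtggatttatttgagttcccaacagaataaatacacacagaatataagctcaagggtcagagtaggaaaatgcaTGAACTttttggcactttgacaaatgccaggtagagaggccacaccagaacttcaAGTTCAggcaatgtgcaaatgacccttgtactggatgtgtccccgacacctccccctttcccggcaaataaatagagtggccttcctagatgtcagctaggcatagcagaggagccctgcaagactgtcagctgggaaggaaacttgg
Cyp3a9 (chr12:21960111-21960410, - strand): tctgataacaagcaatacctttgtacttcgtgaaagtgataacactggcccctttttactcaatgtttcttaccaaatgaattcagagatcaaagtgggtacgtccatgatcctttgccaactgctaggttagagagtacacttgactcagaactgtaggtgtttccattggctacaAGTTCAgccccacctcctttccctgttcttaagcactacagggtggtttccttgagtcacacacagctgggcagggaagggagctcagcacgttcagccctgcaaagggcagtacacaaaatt
In Cyp3a23-3a1 and Cyp3a2, hexamers 3 bases apart formed a direct repeat of AGTTCA on the reverse strand, searched with any 3 bases between. It lay from -144 to -130 of the start of Cyp3a23-3a1 as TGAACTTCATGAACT, and from -131 to -117 of the start of Cyp3a2 as TGAACTTTATGAACT. Of 33469 rat promoters of this length searched on both strands, 2 held this repeat (0.006%), and these were those 2. In each of them an AGGTCA lay upstream of the repeat. Cyp3a18 held an AGTTCA on each strand and Cyp3a9 held 1 AGTTCA, each outside any repeat searched. The hexamer AGTTCA, which is also part of the repeat, was in 14.473% of all promoters and AGGTCA in 16.179%. Neither hexamer was found in the windows of Cyp2b1 and Cyp2b2. Also searched were direct repeats of AGGTCA with any 3 bases between, direct repeats of AGTTCA or of AGGTCA with any 4 between, and everted repeats of either hexamer, or of one with the other, with any 6 between. These matched in none of the 6 windows and in at most 0.024% of all promoters. A match describes letters only, and no match says nothing of sites outside the window.

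The promoter windows of Cyp2b1 and Cyp2b2 were 86.8% identical in a global alignment, and those of Cyp3a23-3a1 and Cyp3a2 80.6%. All other pairs lay between 45.6% and 56.8%. Among genes annotated as protein-coding, Cyp2b1 and Cyp2b2 lie on chromosome 1 with 1 gene between them. Cyp3a23-3a1 and Cyp3a2 are neighbours among such genes on chromosome 12. The probe sequences were not used here, so cross-hybridization between such relatives was not tested.

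The median ratio of signal to background on an array was 1.53 to 4.44 for vehicle RNA and 1.2 to 5.29 for treated RNA. Hepatocyte markers followed the tissue labels by level. Mean vehicle levels of Serpina1, Hnf4a and Cyp7a1 were higher in each liver than in whole embryo and embryo bone. They were above background on every liver array with a value, but Serpina1 was so on every other array too. Bone and cartilage markers such as Spp1 and Mmp13 were highest in embryo bone. Col2a1 was highest there among the day-20 tissues and had no value on day 12. The array numbers fall into 3 sets, called array batches A, B and C, with 12, 8 and 14 arrays. Batch A held the day-12 arrays with EMD 82571 and 2 of the 4 arrays of each day-12 group with retinoic acid. Batch B held the other two of those and the day-20 maternal and embryo liver with retinoic acid, and batch C the rest of day 20. A channel counted as above background on an array where at least a share of 0.5 of the usable spots exceeded the local background by 2 of its SD. A member counted as measured in a group where each channel did so on at least 1 array, which held for 54 of the 75 pairs of member and group. In 11 pairs the vehicle channel, in 3 the treated channel and in 7 neither channel did. Such pairs get no fold, or a bound, and are left out of the counts of measured members. Shares of all probes cover every probe with a value, those below background included. Replicate spots of a probe differed on an array by a median SD of 0.0776 (Cyp3a18) to 0.133 (Cyp3a2) on the log2 scale. Ratios are background-corrected and loess-normalized log2 values of treated over vehicle, errors are standard errors of the limma fit, and adjusted p values come from limma with Benjamini-Hochberg adjustment over all probes of a comparison.

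On day 12, EMD 82571 raised 3 of the 5 probes in maternal liver. Treated over vehicle, CYP2B1/2 was higher by 4.29-fold at the low dose and by 38.4-fold at the high dose, and Cyp3a23-3a1 was 3.39-fold and 7.53-fold higher. Cyp3a18 rose by less, with log2 ratios of 0.48 and 0.75. Cyp3a9 did not pass the test at either dose, and Cyp3a2 was not above background in the vehicle channel. At each dose 3 of 4 measured members passed, all higher, where 14.3% of all probes with a value passed at the low and 20.7% at the high dose, and 5.63% and 10.3% were higher. The median log2 ratio of the members was 0.48 and 0.75, against -0.02 over all probes at each dose.

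The intensities of CYP2B1/2 show a signal that was close to background in vehicle liver and far from it after treatment. In the vehicle channel the spots read 272 and 385 at the low dose and 274 and 312 at the high dose, over a local background of 179 to 200. In the treated channel they read 534 and 822 at the low dose and 3776 and 7806 at the high dose, over 149 to 161. The vehicle readings overlapped between the doses, while the treated readings did not. The log2 ratios were 2.02 and 2.18 at the low dose (2.10 ± 0.12, n = 2, adjusted p = 7.14e-11), and 5.15 and 5.38 at the high dose (5.26 ± 0.12, n = 2, adjusted p = 1.55e-17). The arrays of each dose lay close together, and the doses did not overlap. Because the vehicle signal lay near background, the size depended on the correction. Without background correction the folds were 2.66 and 18.6, and with the authors' deposited log2 ratios, each array centred on its median, 2.57 and 22.7, with both doses still past the threshold.

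Cyp3a23-3a1 was well above background in vehicle liver and rose from there. In the vehicle channel it read 2228 and 4104 at the low dose and 1527 and 2698 at the high dose, and in the treated channel 6667 and 11141, and 8896 and 26462. Its log2 ratios were 1.76 and 1.77 at the low dose (1.76 ± 0.11, n = 2, adjusted p = 2.90e-11), and 2.87 and 2.96 at the high dose (2.91 ± 0.11, n = 2, adjusted p = 1.07e-15). All treated readings were above their vehicle readings. The log2 ratios of the doses did not overlap, while their treated readings did.

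The other CYP3A probes split. Cyp3a18 had log2 ratios of 0.52 and 0.45 at the low dose (0.48 ± 0.09, n = 2, adjusted p = 6.11e-04) and of 0.71 and 0.79 at the high dose (0.75 ± 0.09, n = 2, adjusted p = 2.70e-06). All 4 of its arrays were above 0. Cyp3a9 had a log2 ratio of 0.34 ± 0.14 on the single usable array of the low dose (adjusted p = 0.124). On the other array all its spots carried a mark read here as uneven, and with these kept the value was 0.34 and passed (adjusted p = 0.0137), as it did without background correction (4.82e-04) and with the deposited log2 ratios (0.00161). At the high dose its ratios were -0.16 and -0.13 (-0.14 ± 0.10, n = 2, adjusted p = 0.360), below vehicle on both arrays, and passed only without background correction (0.0220). Cyp3a2 had ratios of 0.02 and 0.19 at the low dose and of 0.10 and 0.08 at the high dose, all near 0, with vehicle spots below background on each array.

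**Figure D1:**
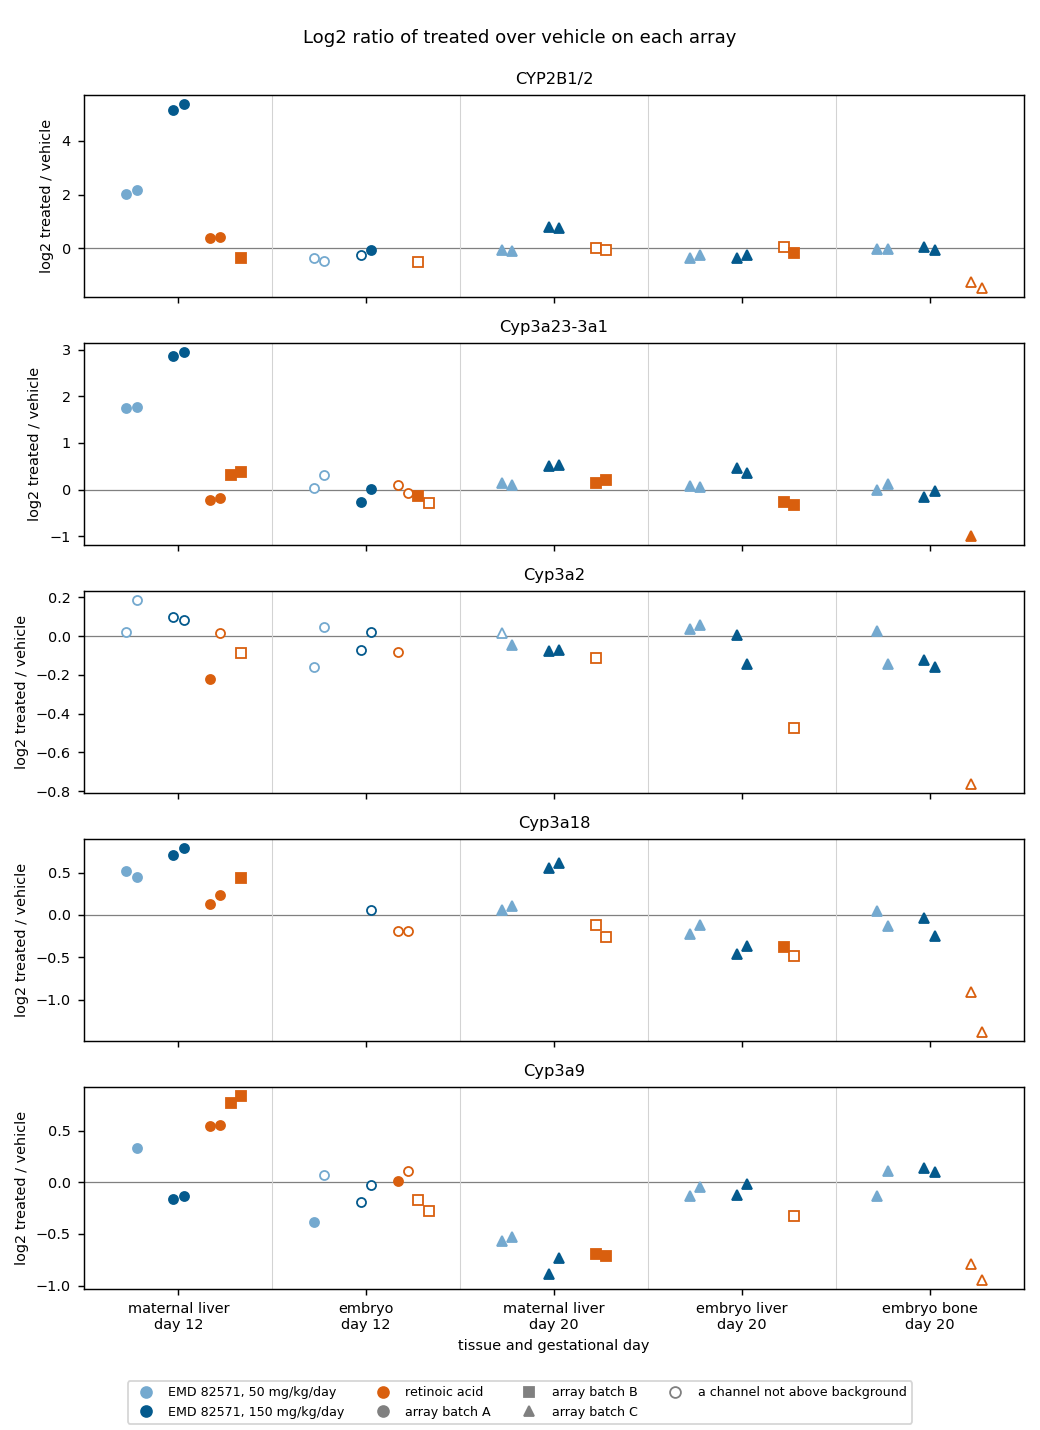
Log2 ratio of treated over vehicle (y axis, its own range for each probe) on each of the 34 arrays with a usable spot, by tissue and day (x axis), with colour for treatment, shape for array batch and open symbols where a channel was not above background. In maternal liver on day 12, the high-dose arrays of CYP2B1/2 at 5.15 and 5.38 and of Cyp3a23-3a1 at 2.87 and 2.96 stand above all other arrays of their probe.

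**Figure D2:**
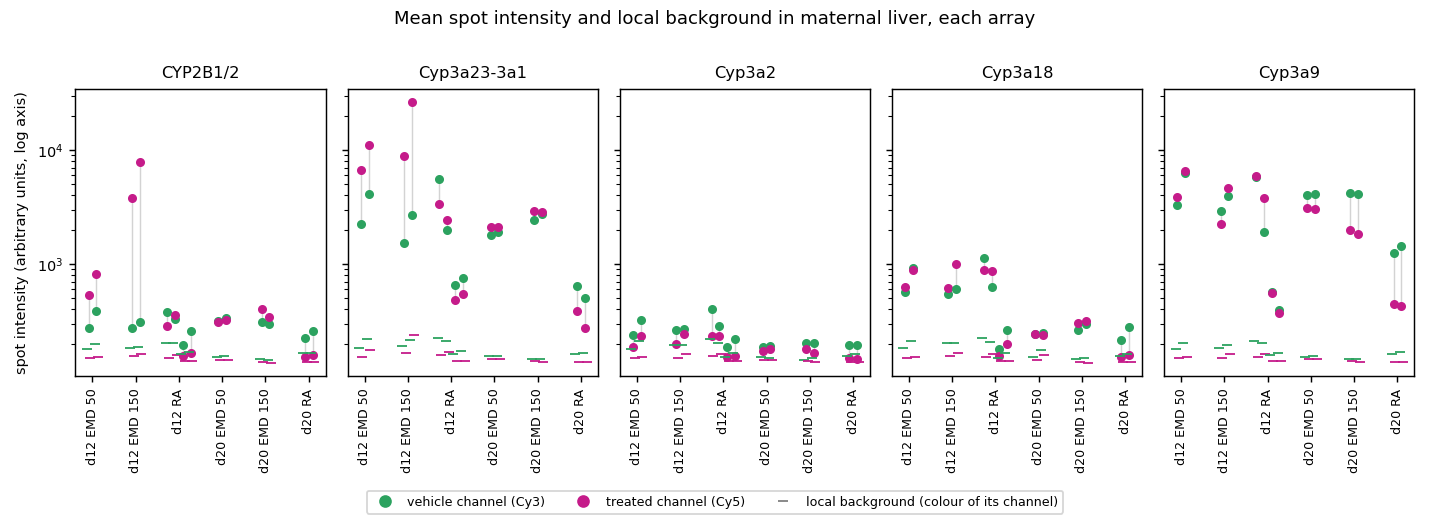
Mean spot intensity in the vehicle (green) and treated (magenta) channel with the local background as dashes, in arbitrary units on a log axis, for each maternal liver array. CYP2B1/2 vehicle spots of day 12 with EMD 82571 read 272 to 385 over a background of 179 to 200, while the treated spots of the high dose read 3776 and 7806.

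The doses differed in maternal liver for CYP2B1/2 on both days, for Cyp3a23-3a1 on day 12 and for Cyp3a18 on day 20. On day 12 the high dose exceeded the low dose by a log2 difference of 3.16 ± 0.17 for CYP2B1/2 (8.96-fold, adjusted p = 3.57e-11) and of 1.15 ± 0.16 for Cyp3a23-3a1 (2.22-fold, adjusted p = 1.34e-05). These were 2 of 4 measured members, where 7.79% of all probes passed. For Cyp3a18 the difference was 0.27, with a 95% confidence interval of 0.01 to 0.53 (adjusted p = 0.287), and for Cyp3a9 it was -0.48, with an interval of -0.83 to -0.13 (adjusted p = 0.0834). The difference of Cyp3a9 rests on 1 usable low-dose array, and it passed with a random block for array batch (0.0486) or session (0.0466), with uneven spots kept (0.0174) and without background correction (1.18e-04). On day 20 the high dose exceeded the low dose for CYP2B1/2 (0.85 ± 0.17, adjusted p = 0.00894) and Cyp3a18 (0.50 ± 0.12, adjusted p = 0.0294), 2 of 5 measured members against 3.36% of all probes. Both of these calls were lost with the deposited log2 ratios (adjusted p = 0.810 for each), that of Cyp3a18 also with median centring (0.116), and both without any 1 of the 4 arrays, with adjusted p values of 0.0807 to 0.114 for CYP2B1/2 and of 0.127 to 0.288 for Cyp3a18. For Cyp3a23-3a1 the day-20 difference in maternal liver was 0.40, with an interval of 0.07 to 0.73 (adjusted p = 0.397). It passed with only the arrays of that tissue and day in the fit (0.00127). In embryo liver and embryo bone none of 5 measured members differed between the doses by limma, where 10.9% and 5.04% of all probes did, and 1 (Cyp3a23-3a1, 0.34) and 0 had an unadjusted p under 0.05. With only the arrays of embryo liver in the fit that of Cyp3a23-3a1 passed (0.0119). In whole embryo no member could be compared, and 0.913% of all probes differed.

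On day 20 the high dose raised CYP2B1/2, Cyp3a23-3a1 and Cyp3a18 in maternal liver, by log2 ratios of 0.76, 0.52 and 0.59, and Cyp3a9 was lower with every treatment. CYP2B1/2 had log2 ratios of 0.78 and 0.75 at the high dose (0.76 ± 0.12, n = 2, adjusted p = 3.79e-04), and of -0.08 on both arrays of the low dose (adjusted p = 0.866). Cyp3a18 had 0.55 and 0.62 at the high dose (0.59 ± 0.09, adjusted p = 2.68e-04), which no longer passed with the deposited log2 ratios (0.37, adjusted p = 0.0541), and 0.06 and 0.11 at the low dose (adjusted p = 0.792). Cyp3a23-3a1 had 0.50 and 0.54 at the high dose (0.52 ± 0.11, adjusted p = 0.00374) and 0.14 and 0.10 at the low dose (adjusted p = 0.745). Its low dose passed with only the arrays of this tissue and day in the fit (0.0282). For each of these probes the high-dose arrays lay above the low-dose arrays without overlap. The call of Cyp3a23-3a1 was lost without either array (adjusted p = 0.0819 and 0.134) and with array batch or session as a random block (0.121 and 0.141).

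Cyp3a9 fell in maternal liver on day 20. Its vehicle spots read 4016 to 4163 with EMD 82571, and its treated spots 3124 and 3062 at the low dose and 1986 and 1819 at the high dose. The log2 ratios were -0.57 and -0.53 at the low dose (-0.55 ± 0.10, n = 2, adjusted p = 6.40e-04) and -0.89 and -0.73 at the high dose (-0.81 ± 0.10, n = 2, adjusted p = 5.38e-06). With retinoic acid they were -0.69 and -0.71 (-0.70 ± 0.10, n = 2, adjusted p = 1.43e-05). All 6 arrays were below 0, and the dose difference of -0.26 had a 95% confidence interval of -0.55 to 0.02 (adjusted p = 0.940). That difference passed without background correction (0.0196) and with only the arrays of this tissue and day in the fit (0.0290). The call at the low dose was lost with the deposited log2 ratios (-0.34, adjusted p = 0.0870).

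Counted together, 1 of 5 measured members passed at the low dose on day 20, against 10.1% of all probes. At the high dose 4 of 5 passed, 3 higher and 1 lower, against 7.11%, of which 2.51% were higher and 4.6% lower. With retinoic acid 1 of 2 passed, against 20.1%. The members' median log2 ratio at the high dose was 0.52, against 0.00 over all probes. Cyp3a2 had values of -0.02 and -0.07 at the 2 doses, with arrays from -0.08 to 0.02, and neither passed. With retinoic acid CYP2B1/2 had ratios of 0.00 and -0.06 with the treated channel below background on both arrays. Cyp3a23-3a1 had 0.14 and 0.20 with retinoic acid (adjusted p = 0.361), which passed with only the arrays of this tissue and day in the fit (0.00478). Cyp3a18 had ratios of -0.12 and -0.27 with retinoic acid that did not pass (adjusted p = 0.152). Its bound was 1.05-fold lower, which is no firm limit because neither channel was above background on 1 of these arrays.

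The log2 ratios of CYP2B1/2, Cyp3a23-3a1 and Cyp3a9 with EMD 82571 were lower in maternal liver on day 20 than on day 12. At the high dose the log2 ratio of CYP2B1/2 was lower on day 20 by 4.50 ± 0.17 (22.6-fold, adjusted p = 1.39e-13), and that of Cyp3a23-3a1 by 2.39 ± 0.16 (5.25-fold, adjusted p = 4.35e-11). At the low dose they were lower by 2.18 and 1.64 (adjusted p = 1.34e-08 and 3.97e-08). The sizes for CYP2B1/2 were -3.70 (13-fold) and -1.47 without background correction and -3.98 and -1.28 with the deposited log2 ratios at the high and low dose, and all passed. The difference of Cyp3a18 was -0.40 ± 0.12 at the low dose (adjusted p = 0.0355), lost without any 1 of the 4 arrays (0.0930 to 0.222), with median centring (0.0927), the deposited log2 ratios (0.173) or a random block for array batch or session (0.121 and 0.122), and -0.17 at the high dose, with an interval of -0.43 to 0.10 (adjusted p = 0.502). For Cyp3a9 the day difference was -0.88 ± 0.17 at the low and -0.67 ± 0.14 at the high dose, and -1.38 ± 0.12 with retinoic acid (adjusted p = 5.69e-04, 0.00174 and 1.26e-08). Its low dose on day 12 was 1 usable array, assumed to vary like the others. In all, 4 of 4 measured members passed at the low dose, 3 of 4 at the high dose and 1 of 2 with retinoic acid, all with the lower ratio on day 20, where 14.3%, 12.5% and 21% of all probes passed and 8.66%, 8.62% and 10.9% had the lower ratio. The day-12 arrays with EMD 82571 were all of array batch A and the day-20 arrays all of batch C. For EMD 82571, day and batch thus cannot be told apart. Dosing ended by day 17 at the latest, so day-20 tissue also followed the last dose by longer than day-12 tissue. Day and time since the last dose cannot be told apart with any treatment. For Cyp3a9 with retinoic acid, batch B held both days and its day-12 arrays alone gave -1.5 ± 0.11 (adjusted p = 6.68e-09).

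**Figure D3:**
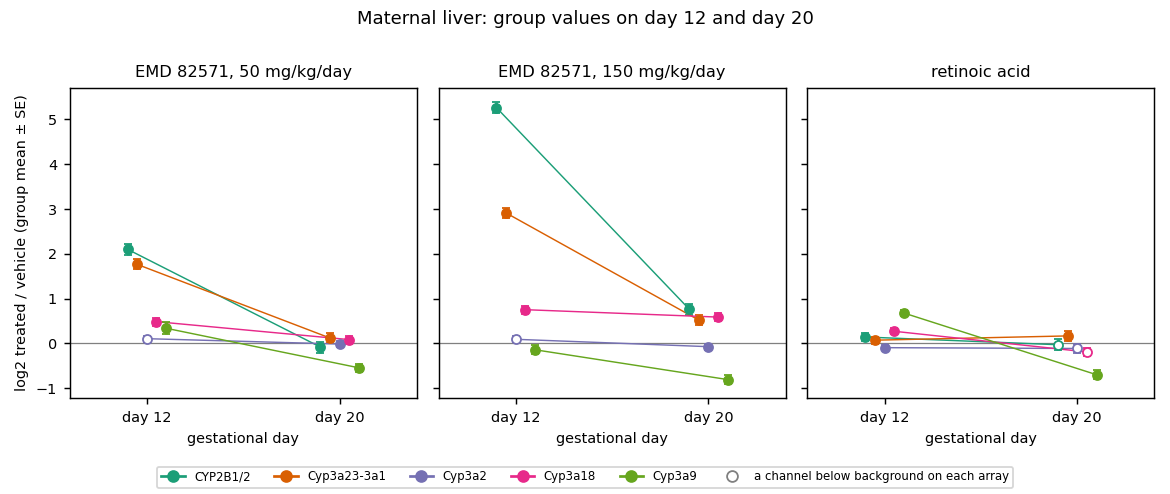
Group mean log2 ratio of treated over vehicle with its standard error (y axis) in maternal liver on day 12 and day 20 (x axis), with 1 panel for each treatment, colour for the probe and open symbols where a channel was below background on each array. CYP2B1/2 at the high dose stood at 5.26 on day 12 and 0.76 on day 20, and Cyp3a9 was below 0 on day 20 in all 3 panels.

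With retinoic acid on day 12, Cyp3a9 and Cyp3a18 rose in maternal liver. Cyp3a9 had log2 ratios of 0.54, 0.56, 0.77 and 0.84 (0.68 ± 0.07, n = 4, 1.60-fold, adjusted p = 1.28e-07). All 4 arrays were above 0, with 0.55 from array batch A alone and 0.80 from batch B alone (adjusted p = 1.38e-05 and 3.54e-07). Cyp3a18 had 0.13, 0.24 and 0.44 on 3 arrays (0.27 ± 0.07, adjusted p = 0.00910), which no longer passed without replicate 4 (0.19, adjusted p = 0.123) or with array batch as a random block (adjusted p = 0.0613). These were 2 of 5 measured members, where 28.9% of all probes passed.

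CYP2B1/2 and Cyp3a23-3a1 differed between array batches with retinoic acid on day 12, in opposite directions. CYP2B1/2 had log2 ratios of 0.38 and 0.41 in batch A and of -0.37 on the single usable array of batch B, which together did not pass (0.14 ± 0.10, n = 3, adjusted p = 0.292). Batch A alone gave 0.40 (adjusted p = 5.91e-05) and batch B alone -0.37 (adjusted p = 0.00417), and without replicate 4, the only array of batch B with a usable spot, the group passed at 0.40 (adjusted p = 3.34e-04). Cyp3a23-3a1 had -0.23 and -0.19 in batch A and 0.31 and 0.38 in batch B, together 0.07 ± 0.08 (n = 4, adjusted p = 0.541). Batch A alone gave -0.21 (adjusted p = 0.0179) and batch B alone 0.35 (adjusted p = 2.93e-04). The batches did not overlap for either probe, so no direction is given for the group. On the batch B arrays the vehicle spots were dimmer, at 652 and 759 for Cyp3a23-3a1 against 5599 and 1989 in batch A, and the part of batch in these values was not tested. The titles of these arrays also differ between the batches, so array batch and whatever the titles stand for cannot be told apart.

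The high dose of EMD 82571 and retinoic acid differed in maternal liver on day 12 for all 4 measured members, where 13.4% of all probes passed. The log2 ratio with EMD 82571 was higher by 5.12 ± 0.16 for CYP2B1/2 (adjusted p = 2.62e-15), by 2.84 ± 0.14 for Cyp3a23-3a1 (adjusted p = 1.15e-13) and by 0.48 ± 0.11 for Cyp3a18 (adjusted p = 0.00679). For Cyp3a9 it was lower, at -0.82 ± 0.12 (adjusted p = 1.72e-05). Within array batch A, which held both compounds, the differences were 4.87, 3.12, 0.57 and -0.70, and all passed. The difference of Cyp3a18 was lost against batch B alone (0.31, adjusted p = 0.108), with median centring (0.0785), with the deposited log2 ratios (0.0674) and without replicate 2 of the high dose (0.44, adjusted p = 0.0956). Pairs with a channel below background are left out of these counts, so 11 compound differences were compared in all, and 6 passed. Of all probes, 7.86% to 64.1% passed in the compound comparisons.

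On day 20 the compound comparisons set arrays of batch C against batch B in both livers, so compound and batch cannot be told apart there. In maternal liver the difference of Cyp3a23-3a1 was 0.35, with an interval of 0.03 to 0.68 (adjusted p = 0.223), and that of Cyp3a9 -0.11, with an interval of -0.39 to 0.17 (adjusted p = 0.777), none of 2 by limma against 7.86% of all probes, with 1 at an unadjusted p under 0.05. In embryo liver Cyp3a23-3a1 was higher with EMD 82571 by 0.71 ± 0.16 (adjusted p = 9.31e-04), 1 of 3 against 41.4%. In embryo bone, where both lay in batch C, it was higher by 0.90 ± 0.19 (adjusted p = 3.95e-04), 1 of 1 against 64.1%. The retinoic acid side was 1 array, assumed to vary like the others, and the difference ran from 0.36 without background correction to 1.46 with median centring. In whole embryo its difference was -0.03, with an interval of -0.31 to 0.25 (adjusted p = 0.938), none of 1 by limma against 11.2%, and 0 at an unadjusted p under 0.05.

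In embryo liver on day 20, Cyp3a23-3a1 and Cyp3a18 moved apart at the high dose. Cyp3a23-3a1 had log2 ratios of 0.45 and 0.36 (0.41 ± 0.11, n = 2, 1.33-fold, adjusted p = 0.00515) and Cyp3a18 had -0.46 and -0.37 (-0.42 ± 0.09, n = 2, adjusted p = 9.25e-04). At the low dose they stood at 0.07 and -0.17, and neither passed. The call of Cyp3a23-3a1 was lost without replicate 1 (0.36, adjusted p = 0.118) and with array batch or session as a random block (0.0650 and 0.0715), and that of Cyp3a18 with the deposited log2 ratios (-0.28, adjusted p = 0.0718). With retinoic acid Cyp3a18 had -0.38 and -0.48 (-0.43 ± 0.09, n = 2, adjusted p = 6.75e-04). On replicate 2 it had 1 usable spot, and neither channel was above background. In this group 39 of 47 probes with a channel below background had a ratio under 0, with a median of -0.44. Their part in the value of Cyp3a18 was not tested. Cyp3a23-3a1 had -0.28 and -0.32 with retinoic acid (-0.30 ± 0.11, adjusted p = 0.0305). This call was lost without either array (0.141 and 0.192), without background correction (0.0663), with the deposited log2 ratios (0.360) and with either block (0.0516 and 0.166). CYP2B1/2 had ratios from -0.35 to -0.26 over the 4 arrays with EMD 82571, all below 0, which did not pass (adjusted p = 0.104 and 0.0568). With only the arrays of this tissue and day in the fit both doses passed (0.0159 and 0.00418), as did Cyp3a18 at the low dose (0.0496). Counts were 0 of 5 measured members at the low dose, 2 of 5 at the high dose and 2 of 3 with retinoic acid, where 12.6%, 38.7% and 50.4% of all probes passed. At the low dose 1 member, CYP2B1/2, had an unadjusted p under 0.05 in the limma fit.

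In embryo bone no member passed with EMD 82571, with group log2 ratios from -0.06 to 0.05 at the low and from -0.14 to 0.12 at the high dose. All 5 were measured at each dose, where 12.2% and 31.1% of all probes passed by limma, and 0 and 1 of the members (Cyp3a2, -0.14) had an unadjusted p under 0.05. With retinoic acid the values were far lower. Cyp3a23-3a1 had -0.99 on its single usable array, with 2 usable spots, and on the other array it was below background. It passed (adjusted p = 1.33e-05), 1 of 1 measured member against 53.6% of all probes, only if this lone array is assumed to vary like the arrays of other groups. Its size ran from -1.59 with median centring to -0.41 without background correction. The other four were below background in at least 1 channel, with -1.24 and -1.47 for CYP2B1/2, -0.91 and -1.38 for Cyp3a18, -0.79 and -0.94 for Cyp3a9 and -0.76 on 1 array for Cyp3a2. Cyp3a18 passed by limma (adjusted p = 6.38e-09), with a bound of 1.27-fold lower. That bound is no firm limit because neither channel was above background on 1 of its arrays. On these arrays 37 of 43 probes with a channel below background had a ratio under 0, with a median of -0.50, and 192 other probes had a median near 0. Their part in the low values of the members was not tested.

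In whole embryo on day 12 no measured member passed, with 1, 2 and 2 members measured at the low dose, the high dose and with retinoic acid, where 15.1%, 6.9% and 34.1% of all probes passed by limma and 0 of the members had an unadjusted p under 0.05. CYP2B1/2 had -0.26 and -0.08 at the high dose, Cyp3a23-3a1 -0.28 and 0.02, and Cyp3a9 -0.38 and 0.07 at the low dose. Cyp3a23-3a1 ran from -0.28 to 0.09 and Cyp3a9 from -0.28 to 0.11 over the 4 arrays with retinoic acid. These values lay on both sides of 0 except those of CYP2B1/2. With retinoic acid, array batch B alone gave -0.21 for Cyp3a23-3a1 and -0.22 for Cyp3a9, which passed (adjusted p = 0.0159 and 0.0341), and batch A alone 0.01 and 0.07 (0.912 and 0.494). With median centring Cyp3a23-3a1 and Cyp3a9 with retinoic acid (-0.27 and -0.23, adjusted p = 0.0230 and 0.0283) and Cyp3a9 at the low dose (-0.41, 0.0139) passed, the last also with the deposited log2 ratios (-0.29, 0.025). CYP2B1/2 at the low dose had -0.37 and -0.46 with vehicle below background on both arrays (adjusted p = 0.0292), so no fold is given.

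CYP2B1/2 at the high dose had lower log2 ratios in whole embryo and embryo liver than in maternal liver of the same day. On day 12, whole embryo lay below maternal liver by 5.43 ± 0.17 for CYP2B1/2 (adjusted p = 4.69e-15) and by 3.04 ± 0.16 for Cyp3a23-3a1 (adjusted p = 5.43e-13), both within array batch A. These were 2 of 2 measured members, where 15.5% of all probes passed. On replicate 1 of the embryo, CYP2B1/2 had 1 usable spot with neither channel above background. Its difference ran from -5.59 to -4.26 under other settings, and all passed. On day 20 at the high dose, embryo liver lay below maternal liver by 1.07 ± 0.17 for CYP2B1/2 (adjusted p = 7.89e-05) and by 1.00 ± 0.12 for Cyp3a18 (adjusted p = 7.04e-06). For Cyp3a23-3a1 the difference was -0.11, with an interval of -0.44 to 0.22 (adjusted p = 0.708). For Cyp3a9 embryo liver lay above maternal liver by 0.74 ± 0.14 (adjusted p = 2.26e-04). Its log2 ratios in embryo liver were -0.13 and -0.01. The vehicle spots there read 262 and 211 over a background of 163 and 152, so a fall could be missed. In all, 3 of 5 measured members passed, against 30.7% of all probes. The day-20 arrays with EMD 82571 all lay in batch C.

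Among the remaining tissue differences, embryo bone at the high dose lay below maternal liver for CYP2B1/2 (-0.76), Cyp3a23-3a1 (-0.62) and Cyp3a18 (-0.73) and above it for Cyp3a9 (0.93), 4 of 5 against 26.5% of all probes. Cyp3a9 was also above maternal liver at the low dose in embryo liver (0.46) and embryo bone (0.54), 1 of 5 in each against 13.9% and 14.3%. In both of these embryonic tissues Cyp3a9 lay near background, so a fall there could be missed. Embryo bone lay below embryo liver for Cyp3a23-3a1 at the high dose (-0.51), 1 of 5 against 38%, and no member differed between them at the low dose, where 10.1% of all probes did by limma and 0 members had an unadjusted p under 0.05. With retinoic acid, 3 differences of Cyp3a23-3a1 passed, namely embryo liver below maternal liver by 0.47, embryo bone below embryo liver by 0.69 and embryo bone below maternal liver by 1.16, each 1 of 1 measured member, where 28%, 49.6% and 44.4% of all probes passed. Both embryo bone differences rest on 1 usable array with retinoic acid, assumed to vary like the others. Without background correction that against embryo liver no longer passed (-0.23, adjusted p = 0.165) and that against maternal liver was -0.52. On day 12 with retinoic acid Cyp3a9 was lower in whole embryo than in maternal liver by 0.76 ± 0.10 (adjusted p = 5.17e-06), 1 of 2 against 24.1%. At the low dose on day 12 only Cyp3a9 could be compared between these tissues, and it did not pass in the limma fit (-0.49, unadjusted p under 0.05 in this 1 of 1, adjusted p = 0.0551), where 10.6% of all probes did. It rested on 1 usable array of maternal liver. It passed in 6 of the 7 other settings, with values from -0.84 to -0.42, among them the deposited log2 ratios (adjusted p = 2.98e-04) and a random block for array batch (0.0278) or session (0.0269), and without replicate 2 of the embryo (-0.72, adjusted p = 0.00803).

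Some of these smaller tissue differences lost their call when 1 array was left out or the processing changed. The embryo bone value of Cyp3a23-3a1 at the high dose no longer passed against embryo liver without replicate 1 of embryo bone (-0.44, adjusted p = 0.103) or of embryo liver (-0.46, adjusted p = 0.0899), nor against maternal liver without replicate 1 of embryo bone (-0.55, adjusted p = 0.0522). The difference of Cyp3a9 at the low dose was lost between embryo liver and maternal liver without any 1 of the 4 arrays (adjusted p = 0.0757 to 0.188). Between embryo bone and maternal liver it was lost without replicate 2 of embryo bone (0.41, adjusted p = 0.167) or replicate 1 of maternal liver (0.52, adjusted p = 0.0715). The difference of Cyp3a23-3a1 with retinoic acid between embryo liver and maternal liver was lost without any 1 of the 4 arrays (adjusted p = 0.0810 to 0.124), without background correction (0.0618), with session as a random block (0.184) and with the deposited log2 ratios (-0.06, 0.738). With these ratios the embryo bone difference of Cyp3a23-3a1 from embryo liver at the high dose (0.0578) and both low-dose differences of Cyp3a9 (0.351 and 0.712) were also lost, the latter with median centring too (0.155 and 0.240).

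The vehicle channel gives the level of each probe without treatment. Cyp3a23-3a1 and Cyp3a9 were bright in maternal liver on both days and near background in whole embryo, embryo liver and embryo bone. Levels are log2 values of Cy3 after normalization between arrays, compared within a probe only, with array batch as a term in the fit and given as mean ± SD over arrays. Arrays are not known to carry separate vehicle RNA. Of 42 comparisons of a member between tissues and days with a measurable level on both sides, 25 passed, where 16.4% of all probes differed between the days in maternal liver. Against maternal liver on day 12, 81% of all probes differed in whole embryo, 49.1% in embryo liver and 73.7% in embryo bone. Against maternal liver on day 20 it was 75.9% in whole embryo, 54.7% in embryo liver and 78.9% in embryo bone. Whole embryo differed from embryo liver in 61.6% and from embryo bone in 51.3%, and the embryonic tissues of day 20 differed in 73.3%.

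Cyp3a9 in vehicle maternal liver rose from 10.45 ± 0.86 on day 12 (8 arrays, 1 without a usable spot) to 11.67 ± 0.37 on day 20 (6 arrays). The fitted difference was 1.60 ± 0.30 (3.03-fold, adjusted p = 1.81e-04). Within array batch B, which held both days, it was 1.85 ± 0.41 (adjusted p = 0.0191). The levels of Cyp3a9 in this batch were 10.15 and 8.64 on day 12 and 11.46 and 11.01 on day 20. The array at 8.64 stood apart from the other day-12 arrays, and the difference was not recomputed without it. In embryo liver its level was 6.57 ± 0.23, lower than in maternal liver on day 20 (log2 difference -5.11, 34.5-fold, adjusted p = 2.11e-20). Whole embryo (6.57 ± 0.26), embryo liver and embryo bone (6.54 ± 0.16) did not pass against each other (adjusted p = 0.248 to 0.649), and the probe was above background on 2 of 8, 4 of 6 and 4 of 6 arrays there.

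Cyp3a23-3a1 had a vehicle level of 10.26 ± 0.50 in maternal liver on day 12 and of 10.48 ± 0.62 on day 20, which did not pass against each other (adjusted p = 0.756). Embryo liver followed at 7.12 ± 0.15, above background on 6 of 6 arrays and 10.2-fold lower than maternal liver of the same day (adjusted p = 1.21e-16). Whole embryo (6.64 ± 0.28) and embryo bone (6.60 ± 0.24) came last and did not pass against each other (adjusted p = 0.50). Embryo bone was lower than embryo liver by 0.69 (adjusted p = 0.00447), while whole embryo and embryo liver did not pass (adjusted p = 0.171), except without the batch term (0.0434).

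CYP2B1/2 had its highest vehicle level in maternal liver on day 20 (7.73 ± 0.37), followed by embryo liver (7.49 ± 0.38) and maternal liver on day 12 (6.82 ± 0.23), with no pair among these past the threshold (adjusted p = 0.0660 to 0.286). Without the batch term day 20 maternal liver (0.91, adjusted p = 3.72e-05) and embryo liver (0.67, 4.28e-04) were higher than maternal liver on day 12, and without background correction embryo liver was lower than maternal liver on day 20 (-0.17, 0.0287). Embryo bone (6.46 ± 0.16) and whole embryo (6.38 ± 0.25) were lower than all 3. The fit with array batch placed embryo bone below whole embryo by 0.57 (adjusted p = 0.0192), against the order of the plain means, and without the batch term the difference was 0.09 (adjusted p = 0.677). The probe was above background on 5 of 6 arrays of embryo liver, 4 of 6 of embryo bone and 1 of 8 of whole embryo. The whole embryo level thus lay near background. Within array batch B alone, whole embryo no longer passed against maternal liver on day 12 (-0.21, adjusted p = 0.614) or embryo liver (0.55 higher in embryo liver, adjusted p = 0.181), while batch A gave -0.52 against maternal liver (adjusted p = 2.90e-04).

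Cyp3a18 had 8.14 ± 0.86 in maternal liver on day 12, 7.42 ± 0.50 on day 20 and 7.11 ± 0.33 in embryo liver, with no pair past the threshold (adjusted p = 0.241 to 0.893). The fit with array batch gave 0.10 for maternal liver on day 20 against day 12, against the order of the plain means. Without the batch term embryo liver was lower than maternal liver on day 12 (-1.03, adjusted p = 9.10e-04). Embryo bone stood at 6.38 ± 0.23. In whole embryo the probe was above background on 0 of 8 arrays, and maternal liver on day 12 was at least 2.89-fold higher. Cyp3a2 stayed near background in every tissue, with mean levels of 6.23 to 6.51. It was above background on 2 of 8 arrays of maternal liver and 0 of 8 of whole embryo on day 12, and on 3 of 6 of maternal liver and 4 of 6 each of embryo liver and embryo bone on day 20. At this signal a small change of Cyp3a2 could be missed, and a fall could not be detected where its vehicle spots were below background. A rise could still show in the treated channel. At the low and high dose in maternal liver on day 12, its treated spots were above background on every array. The log2 ratios there were 0.02 and 0.19 at the low dose and 0.10 and 0.08 at the high dose, so no large rise was seen.

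**Figure D4:**
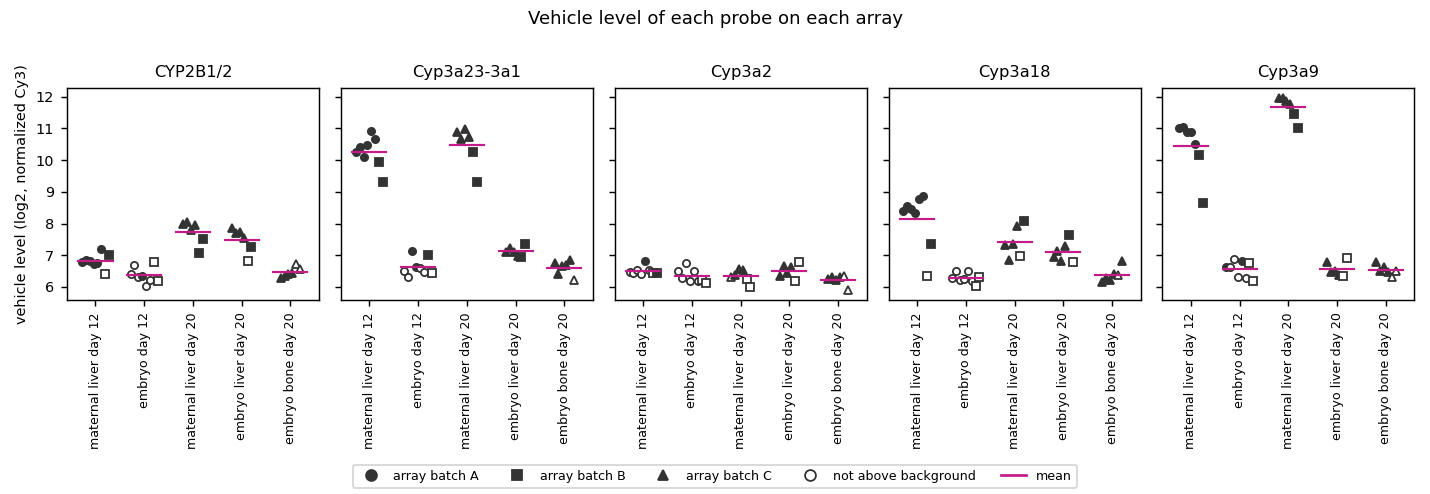
Normalized log2 vehicle (Cy3) level of each probe on each array (y axis) by tissue and day (x axis), with shape for array batch, open symbols where the spot was not above background and a bar at the mean. Cyp3a9 has means of 10.45 and 11.67 in maternal liver on day 12 and day 20 and means of 6.54 to 6.57 elsewhere.

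Other drug-metabolizing enzymes and their regulators on the array were taken as a list of 37 probes. In maternal liver on day 12, 4 of 35 measured probes of the list rose and none fell by limma at the low dose (1 lower at an unadjusted p under 0.05), and 7 rose and 3 fell of 34 at the high dose, with medians of 0.12 at each dose. Of all probes, 14.3% and 20.7% passed at these doses. UGT1A1, which conjugates bilirubin, had log2 ratios of 0.56 ± 0.07 and 0.86 ± 0.07 (adjusted p = 2.85e-06 and 2.15e-09), and UGT1A5 had 0.41 and 0.43 (adjusted p = 4.94e-04 and 1.71e-04). UGT2B2 was higher at the low dose (1.27 ± 0.05, adjusted p = 1.03e-12) and lower at the high dose (-0.24 ± 0.05, adjusted p = 0.00363), the latter named after its value was seen. Calls of this list were not recomputed with arrays left out. CYP2A1/2 rose at the low dose by 0.39 (adjusted p = 0.00706), and UGT1A2 and UGT1A6 at the high dose by 0.89 and 0.45 (adjusted p = 6.26e-09 and 1.01e-04).

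With retinoic acid in the same tissue, 8 of 36 measured probes of the list rose and 2 fell, where 28.9% of all probes passed. UGT2B2 rose by 1.23, UGT2B3 by 0.33 and Cyp2e1, an ethanol-oxidizing P450, by 0.40, while UGT1A1 was lower (-0.26). In maternal liver on day 20 none of 37 rose at either dose by limma, and 1 and 2 had an unadjusted p under 0.05 and a higher level, where 10.1% and 7.11% of all probes passed. The genes that fell were Cyp4a1, a fatty acid omega-hydroxylase, at both doses (-0.44 and -0.53) and UGT2B2 at the high dose (-0.69). With retinoic acid 3 rose and 4 fell of 25, against 20.1% of all probes, with Cyp4a1 at -0.83, Fmo5 at -0.73, UGT2B2 at -0.23 and the receptor Ppard at 0.65. In embryo liver 11 of 37 fell and none rose by limma at the high dose (1 higher at an unadjusted p under 0.05), against 38.7% of all probes. Among those that fell were UGT2B6 (-1.18), the sulfotransferase Sult1b1 (-0.82), UGT1A6 (-0.58) and UGT1A2 (-0.49).

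Likeness of the probes over the group mean log2 ratios is given as a description. The probe most like CYP2B1/2 among 207 was Cyp3a23-3a1, with Pearson r = 0.96 over the 15 groups and 0.96 without embryo bone with retinoic acid. UGT1A5 and Fgf1 followed for CYP2B1/2 (0.778 and 0.657), and UGT1A5 and UGT2B12 for Cyp3a23-3a1 (0.794 and 0.67). Most of the spread of both probes lay in the 2 groups of maternal liver on day 12 with EMD 82571. For Cyp3a9 the most alike were Cyp17a1, Cyp4a1 and Cebpg (0.849, 0.847 and 0.665). For Cyp3a18, over 14 groups, they were Cyp1a1, UGT2B12 and Nat1 (0.836, 0.818 and 0.816), which gave way to UGT1A2, CYP2B1/2 and Cyp3a23-3a1 (0.782, 0.768 and 0.747) without embryo bone with retinoic acid. Cyp3a2 was most like Cyp2c13, STE and UGT1A3 (0.946, 0.941 and 0.933). Without embryo bone with retinoic acid these were TENASCINR, Cyp2c13 and STE (0.891, 0.841 and 0.836). The groups share arrays, batches and dye order with every probe, and these values carry no test.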

How the data were processed

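Expression was measured in 34 2-colour PIQOR cDNA arrays, with vehicle RNA in Cy3 and treated RNA in Cy5 per the labels. Groups were taken from the labels. The deposited spot files hold the intensity of each spot and its local background in each channel, not background subtracted and measured within a fixed circle, per the file headers. A deposited table holds the authors' log2 ratio for each grid position. Its grid numbering, scale and direction were found by setting it against the spot intensities (correlation per array 0.522 to 0.993, median 0.894), and its centring is not stated, with array medians from -0.705 to 0.334. It was used as an alternative only, for 236 named probes. Upstream image settings beyond this, and exact probe sequences, are not given in the sources used here.

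Intensities were corrected with normexp (offset 50) and normalized by global loess within arrays in limma 3.58.1 under R 4.3.3. Spots with code 1 (766), 2 (4521) or 3 (636) in the files' flag column were left out of the normalization and the ratios, beside 28893 unmarked. Vehicle levels and the rule for a channel above background left out codes 1 and 3 only. The headers do not spell these codes out, and they are read here as marked by hand, dim and uneven. Then up to 4 replicate spots were averaged. Names of 239 probes matched a RefSeq symbol (185), a synonym (21) or were kept as written (33). The limma model held all 34 arrays, 15 group means, a moderated variance (prior degrees of freedom 3.38) and 40 contrasts of groups. Tests were 2-sided, and p values were adjusted by Benjamini-Hochberg over the probes of each contrast, with a threshold of 0.05. All 239 probes were tested. Vehicle levels came from Cy3 after loess and Aquantile, with tissue and day and array batch as terms. A probe below background in a channel on all arrays of a group got a bound or no fold. Standard errors rest on variance pooled over groups. The number of arrays limits the precision.

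Alternatives changed the background correction, normalization, filter on dim probes, source of the values, blocks, arrays in the fit and array left out. The pipeline was tested on simulated data. Figures were drawn with matplotlib 3.10.9. The members and lists were chosen with earlier results of these data known, and the likeness without embryo bone with retinoic acid was added after seeing the data. Named were the members in each comparison, the 3 probes most like each by Pearson r, and up to 4 probes with the smallest p that passed in the list of other drug-metabolizing enzymes.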

Additional observations from a re-analysis of the deposited data

Results flagged for a closer look

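In 29 sets of 4 to 10 vehicle-channel values of a member in a tissue and day, or of ratios in a group, 4 had 1 array far from the others, where chance gives about 1 in 20 such sets. The Cyp3a9 level in vehicle maternal liver on day 12 was 8.64 on the array of retinoic acid replicate 4, below the other arrays, and the array belongs to array batch B. The Cyp3a2 level in the same tissue was 6.83 on the array of retinoic acid replicate 1, above the others. In vehicle embryo bone, the array of retinoic acid replicate 2 stood apart for Cyp3a2 (5.91, low) and for Cyp3a18 (6.81, high), and the Cyp3a2 spots there were not above background.

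Of 48 differences of a treatment effect between tissues or days, 24 passed the limma test of the difference itself. Of all probes, 10.1% to 49.6% passed in these comparisons. Between day 20 and day 12 in maternal liver, the log2 differences were -2.18 and -4.50 for CYP2B1/2 and -1.64 and -2.39 for Cyp3a23-3a1 at the low and high dose, -0.40 for Cyp3a18 at the low dose, and -0.88, -0.67 and -1.38 for Cyp3a9 at the low dose, the high dose and with retinoic acid. Whole embryo against maternal liver on day 12 gave -5.43 for CYP2B1/2 and -3.04 for Cyp3a23-3a1 at the high dose and -0.76 for Cyp3a9 with retinoic acid. Embryo liver against maternal liver on day 20 gave -1.07 for CYP2B1/2 and -1.002 for Cyp3a18 at the high dose, 0.46 and 0.74 for Cyp3a9 at the low and high dose, and -0.47 for Cyp3a23-3a1 with retinoic acid. Embryo bone against maternal liver gave -0.76 for CYP2B1/2, -0.62 for Cyp3a23-3a1, -0.73 for Cyp3a18 and 0.93 for Cyp3a9 at the high dose, 0.54 for Cyp3a9 at the low dose and -1.16 for Cyp3a23-3a1 with retinoic acid. Embryo bone against embryo liver gave -0.51 at the high dose and -0.69 with retinoic acid for Cyp3a23-3a1. The embryo bone values of Cyp3a23-3a1 with retinoic acid and the day-12 maternal liver value of Cyp3a9 at the low dose each rest on 1 usable array. Cyp3a9 lay near background in embryo liver and embryo bone, where a fall could be missed. Day, array batch and time since the last dose cannot be told apart in the EMD 82571 comparisons of day 20 with day 12.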

How the results depend on the processing

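Of 1311 recomputed values under other settings, 1227 kept their side of the threshold, where a change of sign without a call was not counted. Another 35 lost and 46 gained a call, and 3 changed sign with a call before or after. These were the sign changes for Cyp3a23-3a1 in maternal liver with retinoic acid on day 12 (-0.21 from array batch A alone), for CYP2B1/2 there (-0.37 from batch B alone), and for the CYP2B1/2 vehicle level of embryo bone against whole embryo (0.0862 without the batch term). The cause was not tested. Of 448 values with 1 array left out, 414 kept their call, 32 lost and 2 gained one, and none with a call changed sign. The count of dose differences, 4 as reported, was 2 with the deposited log2 ratios and 7 with only the arrays of a tissue and day in the fit, and 2 to 4 with 1 array left out, where the CYP2B1/2 and Cyp3a18 differences in maternal liver on day 20 were those lost. The count of compound differences, 6 as reported, was 3 when both channels had to be above background on every array, since fewer pairs were compared, and 5 to 6 with 1 array left out. The 19 treatment calls of 54 ranged from 18 to 19 with 1 array left out and from 15 to 24 under other settings, and the 24 tissue and day calls from 21 to 25 and from 19 to 25. Of all probes, 6.9% to 53.6% passed in a treatment comparison and 0.913% to 10.9% between doses. Between compounds 7.86% to 64.1% passed, and between tissues or days 10.1% to 49.6%. In limits, all named probes already passed the filter, so tests without it gave the same values. CYP2B1/2 lay near background in vehicle liver, and its fold at the high dose on day 12, 38.4 as reported, was 18.6 without background correction. No paired analysis was possible because the labels give the arrays no replicate numbers shared between groups.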
